A study of Mus musculus with 3 samples.

Results

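HNF4A and 7 other transcription factors of the hepatocyte were measured in liver non-parenchymal cells of mice that carried a mammary tumour. The genes were Hnf4a, Foxa2, Foxa3, Cebpa, Cebpb, Nr1h4, Nr1i3 and Ppara, taken by symbol, and they are 8 of the 31053 genes in the count matrices. All 8 had unique molecular identifiers (UMIs, each a captured transcript) in all 3 libraries. The libraries came from the livers of female BALB/c mice. The control mice had an orthotopic injection of PBS and were 8 weeks old. The other mice had an orthotopic injection of 4T1 cells, a mouse mammary carcinoma line, and livers were taken on day 4 (labelled 8 weeks old) or day 21 (11 weeks old). The labels do not give the day on which the control livers were taken or the number of mice behind a library. The series title names a loss of HNF4A from the liver under an extrahepatic tumour, which is the question these libraries can address for transcripts only. The cells were the non-parenchymal fraction after perfusion, a preparation that leaves out most hepatocytes, so the hepatocytes measured here are those that stayed in it.

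HNF4A is a nuclear receptor that binds the promoters and enhancers of a large share of hepatocyte genes and maintains the differentiated hepatocyte. FOXA2 and FOXA3 are forkhead factors that open chromatin for other liver factors. C/EBPα drives metabolic genes in hepatocytes and the making of granulocytes, and C/EBPβ is induced in the acute phase response and in myeloid cells. Nr1h4 encodes FXR, the bile acid receptor, Nr1i3 encodes CAR, a receptor that induces drug-metabolising enzymes, and Ppara encodes PPARα, which turns on fatty acid oxidation in fasting.

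On GRCm38, Hnf4a lies at chr2:163506808-163572910 on the plus strand and Foxa2 at chr2:148042877-148046969 on the minus strand. Foxa3 lies at chr7:19013284-19023538 on the minus strand, Cebpa at chr7:35119293-35121928 on the plus strand and Cebpb at chr2:167688915-167690418 on the plus strand. Nr1h4 lies at chr10:89454234-89533585 on the minus strand, Nr1i3 at chr1:171213970-171220701 on the plus strand and Ppara at chr15:85734983-85802819 on the plus strand. Genes on the opposite strand overlap 4 of them: Hnf4aos with Hnf4a, Gm45091 with Cebpa, Tmem189 with 908 bases of Cebpb and Tomm40l with 4691 bases of Nr1i3. The sources used here do not say whether the counting used strand, so UMIs of Cebpb and Nr1i3 could include some of these neighbours. Tmem189 itself had 918, 1072 and 1847 UMIs in the control, day 4 and day 21 libraries, and Tomm40l had 319, 420 and 437.

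Hnf4a has 2 annotated start sites, 40298 bases apart, and 3′ UMI counts do not tell their transcripts apart. Both promoters are shown because every Hnf4a value below sums over them, and that of Nr1h4 because its transcripts were mostly outside hepatocytes. The sequences are RefSeq's for GRCm38.p6, 5′ to 3′ on the gene's strand, from 250 bases before the start site to 50 after it. The Nr1h4 window is at the only start site listed for it there. It lies inside the gene span given above, whose 5′ end is at 89533585, and no window at that end was examined. Capitals mark matches on either strand to the HNF1 half-site GTTAAT (on the other strand ATTAAC) or to the nuclear receptor half-site AGGTCA (on the other strand TGACCT).

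Hnf4a upstream start, chr2:163506607-163506906, plus strand: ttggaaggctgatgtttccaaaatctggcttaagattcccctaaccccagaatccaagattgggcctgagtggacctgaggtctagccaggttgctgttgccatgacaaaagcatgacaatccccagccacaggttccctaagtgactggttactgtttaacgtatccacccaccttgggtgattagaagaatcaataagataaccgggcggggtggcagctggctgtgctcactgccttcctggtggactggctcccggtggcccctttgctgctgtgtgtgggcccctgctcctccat

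Hnf4a downstream start, chr2:163546905-163547204, plus strand: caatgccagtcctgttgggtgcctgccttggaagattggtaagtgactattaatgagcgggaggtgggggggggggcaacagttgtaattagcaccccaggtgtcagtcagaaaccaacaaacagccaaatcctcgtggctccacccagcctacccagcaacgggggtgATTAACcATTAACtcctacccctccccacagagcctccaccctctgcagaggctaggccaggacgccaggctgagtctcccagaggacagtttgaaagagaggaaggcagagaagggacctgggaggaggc

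Nr1h4, chr10:89506609-89506908, minus strand: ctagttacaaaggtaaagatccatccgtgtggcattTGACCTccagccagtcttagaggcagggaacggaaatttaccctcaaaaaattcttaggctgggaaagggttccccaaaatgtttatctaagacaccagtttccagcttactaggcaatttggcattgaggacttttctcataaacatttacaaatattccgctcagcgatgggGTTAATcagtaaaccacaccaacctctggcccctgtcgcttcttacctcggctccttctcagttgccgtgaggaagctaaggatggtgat

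The downstream Hnf4a window held 2 HNF1 half-sites next to each other and the upstream window held 0. The Nr1h4 window held 1 HNF1 half-site and 1 nuclear receptor half-site. Among 32851 RefSeq promoters of this length, 7.10% held the HNF1 half-site and 16.3% the nuclear receptor half-site. The forkhead letters TGTTTAC, found in 3.65% of promoters, and the C/EBP letters TTGCNNAA, found in 10.8%, had 0 matches in these 3 windows. A match describes letters in a window and is not a bound site.

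The control, day 4 and day 21 matrices held 6489, 9175 and 12338 barcodes with 27191082, 34833820 and 51913215 UMIs. Filters on detected genes and mitochondrial UMIs removed 27.0%, 39.96% and 13.5% of these barcodes, and 4694, 5410 and 9938 cells stayed after doublet removal. Libraries shared 13 to 32 barcodes, at most 0.349% of the smaller library. There was 1 library per group, so no difference below has a replicate check, no test was run, and every 95% interval covers counting error only. Levels are UMIs per 1000000 of the summed UMIs of a cell class (CPM). They compare a gene between cells and libraries, and not 1 gene with another.

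Cells were clustered with the 8 genes left out of the clustering genes, and clusters were named from marker lists. The hepatocyte-like class held 53, 67 and 26 cells in the control, day 4 and day 21 libraries, with 494309, 703835 and 159453 UMIs. Alb, the serum albumin gene, stood at 49364, 49963 and 58701 CPM there, and the bile duct genes Krt19, Krt7 and Epcam had 0 UMIs in all 3 libraries. Markers of neutrophils summed to 12.1 and 25.6 CPM in the control and day 4 hepatocyte-like cells and to 9175 CPM at day 21, where 12 of 12 markers had UMIs. In neutrophil-like cells the same sum was 125538, 186304 and 401607 CPM. Kupffer cell markers summed to 140, 253 and 257 CPM in hepatocyte-like cells, against 36110, 40375 and 34612 CPM in Kupffer-like cells. Marco was at 0 among them in all 3 libraries, with Timd4 and Cd163 at 0 in the control only and Adgre1 at 0 at day 21 only. Their part in the results for single genes was not tested.

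The cholangiocyte-like class, the bile duct epithelium, held 19, 21 and 21 cells. A further 22, 128 and 151 barcodes led with hepatocyte genes but had medians of only 1147, 973 and 871 UMIs. They were kept apart as low-UMI barcodes with hepatocyte markers and given no cell type name. The 5 deepest hepatocyte-like cells held 42.7%, 26.7% and 46.9% of the UMIs of the class in the control, day 4 and day 21 libraries.

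The 8 genes fell into 3 patterns across cell classes. Over the 3 libraries together, Hnf4a, Nr1i3, Foxa3 and Ppara had more UMIs in hepatocyte-like cells than in any other class. At day 21 alone the low-UMI barcodes with hepatocyte markers held more: 43 Hnf4a UMIs against 23 in hepatocyte-like cells, 11 against 9 for Nr1i3, 11 against 6 for Foxa3 and 10 against 8 for Ppara. Of the UMIs in kept cells of all libraries, hepatocyte-like cells held 301 of 504 for Hnf4a (59.7%), 132 of 217 for Nr1i3 (60.8%), 92 of 179 for Foxa3 (51.4%) and 56 of 141 for Ppara (39.7%). Foxa2 had only 44 UMIs, of which 20 (45.5%) were in cholangiocyte-like cells and 27.3% in hepatocyte-like cells. Most UMIs of the other 3 genes lay outside the hepatocyte-like class. Of Cebpa UMIs, 44.8% were in Kupffer-like cells, the resident macrophages. Of Nr1h4 UMIs, 84.95% (1050 of 1236) were in stellate-like cells, the vitamin A-storing pericytes. Such shares also depend on the size of a class. As a level over the 3 libraries, Cebpa was at 192 CPM in hepatocyte-like cells (169 to 216) and 147 CPM in Kupffer-like cells (140 to 154). Cebpb was spread over Kupffer-like (26.1%), neutrophil-like (19.5%), monocyte/macrophage-like (15.1%) and stellate-like cells (13.3%), with 1.28% in hepatocyte-like cells.

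**Figure D1:**
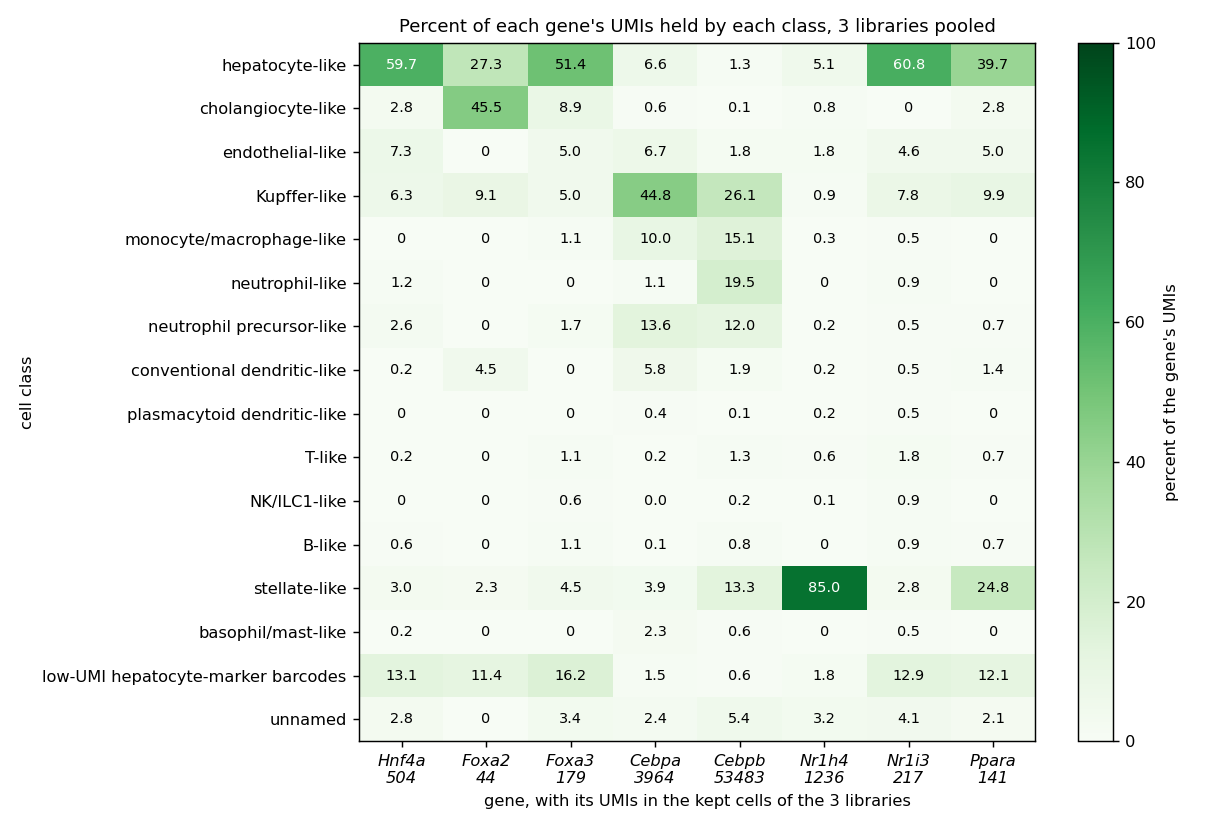
Share of each gene's UMIs in kept cells, in percent of the gene's total over the 3 libraries, by cell class. Hnf4a and Nr1i3 stand at 59.7% and 60.8% in hepatocyte-like cells, Nr1h4 at 84.95% in stellate-like cells, and Cebpa and Cebpb are spread over myeloid classes.

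Free RNA from broken hepatocytes gives UMIs in droplets of other cells. The UMIs that such RNA would bring were computed from the hepatocyte marker UMIs of each class and the ratio of each gene to those markers in the hepatocyte-like cells of the same library. The intervals of the ratios to this expectation cover the counting error of the observed UMIs only. They leave out the counting error of the expectation itself. Observed Hnf4a was 0.67 times this expectation in Kupffer-like cells (0.46 to 0.94), 1.23 times in endothelial-like cells (0.86 to 1.69) and 0.49 times in stellate-like cells (0.28 to 0.82). Hnf4a in these classes was thus close to or below the level of free hepatocyte RNA. In cholangiocyte-like cells Hnf4a was at 0.92 times the expectation (0.50 to 1.54) and Nr1i3 had 0 UMIs where 6.96 were expected. Neutrophil precursor-like cells had 13 Hnf4a UMIs, 3.35 times the expectation (1.79 to 5.73), at only 0.802 CPM.

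Other genes stood well above free RNA outside the hepatocyte. Foxa2 was at 20.1 times the expectation in cholangiocyte-like cells (12.3 to 31.1) and Foxa3 at 3.36 times (1.92 to 5.46). The Foxa2 expectation rests on only 12 UMIs in hepatocyte-like cells, so its ratio is less certain than the interval shows. Nr1h4 was at 156 times the expectation in stellate-like cells (147 to 166), and Ppara at 5.76 times (4.01 to 8.02) with 11, 16 and 8 UMIs in the control, day 4 and day 21 libraries. Per library, the bile duct cells held 6, 10 and 4 Foxa2 UMIs in the control, day 4 and day 21 libraries and 4, 5 and 7 Foxa3 UMIs. Hnf4a had 3, 6 and 5 UMIs in the same cells. With 19, 21 and 21 cells this class was too small to be compared between libraries. Cebpa was at 42.4 times the expectation in Kupffer-like cells, and Cebpb at 133 times in Kupffer-like and 697 times in neutrophil-like cells.

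Hnf4a in hepatocyte-like cells was not lower by a clear margin at either day than in the control. It had 100, 178 and 23 UMIs in the control, day 4 and day 21 hepatocyte-like cells, or 202, 253 and 144 CPM. The log2 ratio was 0.32 for day 4 over control (−0.04 to 0.69) and −0.46 for day 21 over control (−1.21 to 0.18), and both intervals include 0. Day 21 stood below day 4, with a log2 ratio of −0.78 (−1.50 to −0.18). Hnf4a UMIs were found in 19, 24 and 14 hepatocyte-like cells of the control, day 4 and day 21 libraries, or 35.8%, 35.8% and 53.8%. The median depth of these classes was 2044, 1681 and 6366 UMIs, so these shares compare cells of different depth.

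The day 21 value rested on few cells and moved with how the cells were chosen. The 5 deepest day 21 cells held 11 of its 23 Hnf4a UMIs. When the low-UMI barcodes were added, an alternative chosen after the data were seen, Hnf4a stood at 198, 224 and 191 CPM with 103, 198 and 66 UMIs in the control, day 4 and day 21 libraries. The log2 ratio of day 21 over control was then −0.05 (−0.52 to 0.41), an interval that runs from 0.697-fold to 1.33-fold. Day 21 over day 4 was −0.22 (−0.65 to 0.18) in the same cells. With the mitochondrial limit lifted, 153, 308 and 92 hepatocyte-like cells had 173, 197 and 157 CPM of Hnf4a. Mitochondrial UMIs enter these sums. Over nuclear-encoded UMIs only, Hnf4a in those cells stood at 237, 284 and 190 CPM. The intervals were 203 to 274, 254 to 316 and 139 to 253. Thinning every cell to 1000 UMIs left 4, 7 and 4 Hnf4a UMIs and turned day 21 over control to 0.93 and day 21 over day 4 to 0.40.

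**Figure D2:**
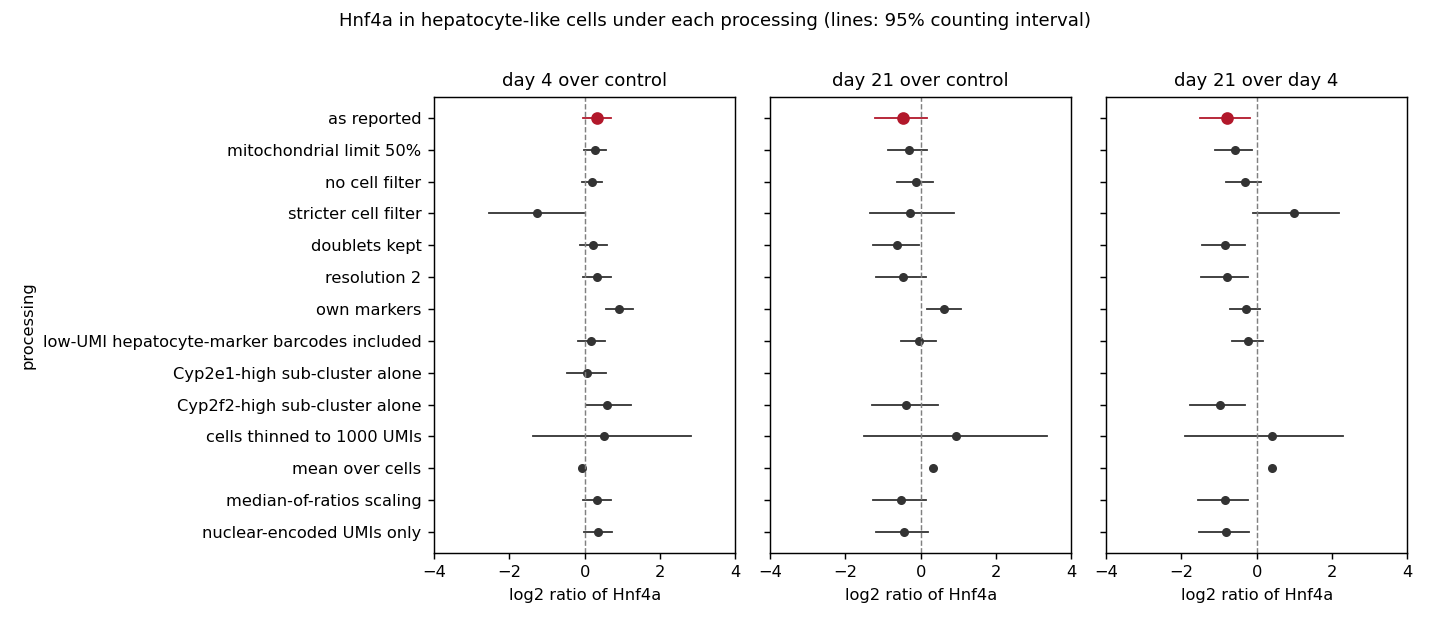
Hnf4a log2 ratio between libraries in hepatocyte-like cells, for the chosen setting and each alternative setting, on a log2 axis with 0 as no difference. The points lie on both sides of 0 in all 3 comparisons, from −1.26 to 0.92 for day 4 over control, from −0.62 to 0.93 for day 21 over control and from −0.98 to 0.99 for day 21 over day 4.

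Over whole libraries the values differed more, and the libraries held different numbers of hepatocyte-like cells. Hnf4a had 249, 421 and 129 UMIs in all barcodes of the control, day 4 and day 21 libraries, or 9.16, 12.1 and 2.48 CPM. Nr1i3 stood at 4.85, 3.50 and 0.636 CPM over all barcodes, Foxa3 at 3.27, 3.24 and 0.713 CPM and Ppara at 2.83, 2.67 and 0.636 CPM. All 4 were lowest at day 21, the library with the most barcodes and the fewest hepatocyte-like cells. With the low-UMI barcodes with hepatocyte markers added, the control, day 4 and day 21 libraries held 75, 195 and 177. By that count the control had the fewest. In such library totals fewer hepatocytes and less RNA per hepatocyte cannot be told apart.

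The FOXA factors were sparse. Foxa3 had 43, 43 and 6 UMIs in the control, day 4 and day 21 hepatocyte-like cells, or 87.0, 61.1 and 37.6 CPM. The log2 ratio was −0.51 for day 4 over control (−1.15 to 0.13) and −1.11 for day 21 over control (−2.73 to 0.03). Both intervals include 0. Foxa2 had 3, 4 and 5 UMIs, or 6.07, 5.68 and 31.4 CPM, and was too low to be counted as measured (20 UMIs in both libraries together). Its log2 ratio was 2.28 for day 21 over control (0.01 to 5.06), on 5 UMIs at day 21 and 3 in the control.

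At day 21 Cebpa had its lowest value and Cebpb its highest in hepatocyte-like cells. Cebpa had 82, 162 and 16 UMIs in the control, day 4 and day 21 hepatocyte-like cells, or 166, 230 and 100 CPM. Its log2 ratio was 0.47 for day 4 over control (0.08 to 0.87), −0.69 for day 21 over control (−1.60 to 0.06) and −1.16 for day 21 over day 4 (−2.04 to −0.45). Cebpb had 226, 358 and 99 UMIs, or 457, 509 and 621 CPM. The log2 ratio to the control was 0.15 at day 4 (−0.09 to 0.40) and 0.45 at day 21 (0.09 to 0.79). With the low-UMI barcodes added, Cebpb was 0.69 higher at day 21 than in the control (0.43 to 0.94). Under a filter of 500 genes and 10% mitochondrial UMIs the same value was −0.17, and with cells chosen by their own markers it was −0.60. The neutrophil markers at 9175 CPM in the day 21 hepatocyte-like cells stand beside this value, as Cebpb was at 1598 CPM in day 21 neutrophil-like cells.

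Of the nuclear receptors, Nr1i3 differed most from the control. It had 67, 56 and 9 UMIs in the control, day 4 and day 21 hepatocyte-like cells, or 136, 79.6 and 56.4 CPM. Its log2 ratio was −0.77 for day 4 over control (−1.31 to −0.23) and −1.20 for day 21 over control (−2.45 to −0.25). With the low-UMI barcodes added these values were −0.73 (−1.22 to −0.23) and −1.17 (−1.99 to −0.46). With cells chosen by their own markers, day 4 over control was 0.10. Ppara had 25, 23 and 8 UMIs, or 50.6, 32.7 and 50.2 CPM, with a log2 ratio of −0.63 for day 4 over control (−1.51 to 0.25) and 0.05 for day 21 over control (−1.37 to 1.18). Nr1h4 had 27, 31 and 5 UMIs, or 54.6, 44.0 and 31.4 CPM, and all its intervals between libraries include 0.

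**Figure D3:**
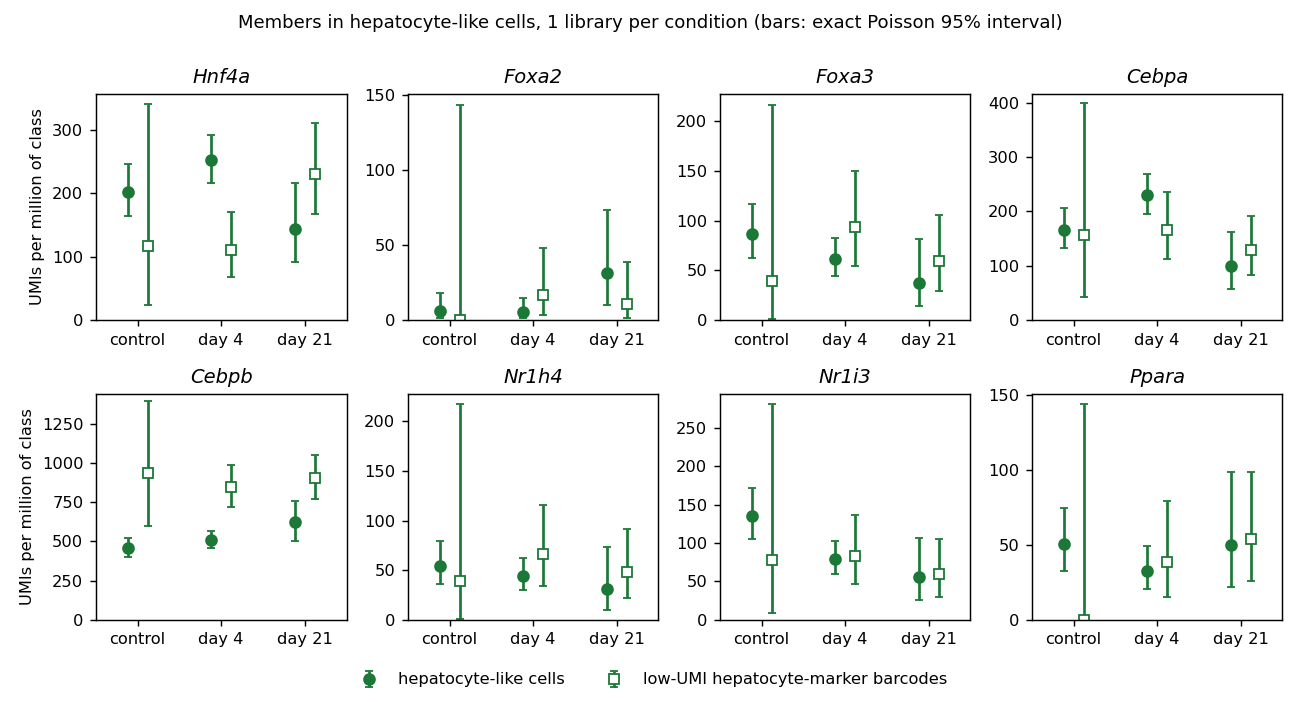
Level of each gene in CPM in hepatocyte-like cells (filled circles) and in the low-UMI barcodes with hepatocyte markers (open squares) for the control, day 4 and day 21 libraries, 1 library each, with 95% counting intervals. Nr1i3 stands at 136, 79.6 and 56.4 CPM and Cebpb at 457, 509 and 621 CPM, while the Hnf4a values of 202, 253 and 144 CPM have a wide day 21 interval.

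Taking a fold of 2 as the mark, 0 of the 7 measured genes were past it in either direction at day 4 over control, where 4.09% of 5083 measured genes were higher and 4.96% lower. At day 21 over control 2 of 7 were lower, Foxa3 and Nr1i3, against 8.52% of 3462 genes, and 0 of 7 were higher, against 6.67%. At day 21 over day 4 the only one was Cebpa, lower, where 6.78% of 4130 genes were lower and 7.77% higher. The median log2 ratio of the 7 genes was −0.31, −0.69 and −0.43 in these comparisons, beside −0.00, 0.05 and 0.06 for all measured genes.

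Hepatocytes differ along the liver lobule, and the pools did so too. Among the hepatocyte-like sub-clusters, which were looked at after the data were seen, 1 led with the pericentral genes Cyp2e1, Cyp2c50, Cyp1a2 and Cyp7a1. It is called Cyp2e1-high and held 9, 10 and 1 cells in the control, day 4 and day 21 libraries. Another led with Apoa4 and the periportal genes Cyp2f2, Hsd17b13, Cps1 and Gls2, is called Cyp2f2-high, and held 4, 13 and 15 cells. In the Cyp2f2-high cells Cyp2e1 stood at 0, 39.8 and 402 CPM in the control, day 4 and day 21 libraries. Cyp2f2 stood at 674, 1164 and 459 CPM there and Apoa4 at 4360, 419 and 430 CPM. Comparisons within this sub-cluster thus do not hold the zone fixed between libraries. Of the hepatocyte-like UMIs, 49.5%, 37.4% and 3.75% came from the Cyp2e1-high cells and 34.2%, 53.6% and 87.4% from the Cyp2f2-high cells.

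Between the Cyp2e1-high and Cyp2f2-high cells, Nr1i3 was higher in the Cyp2e1-high ones in the control and at day 4. It had 52 UMIs in 9 Cyp2e1-high cells of the control (213 CPM) and 3 in 4 Cyp2f2-high cells (17.7 CPM), a log2 ratio of 3.37 (1.96 to 5.91). At day 4 it had 40 UMIs in Cyp2e1-high cells (152 CPM) and 6 in Cyp2f2-high cells (15.9 CPM), a log2 ratio of 3.16 (2.01 to 4.79). The other hepatocyte-like sub-clusters of the control had 354, 266 and 42.6 CPM of Nr1i3, on only 4, 6 and 2 UMIs. Nr1i3 was thus not particular to the Cyp2e1-high cells. Within the Cyp2f2-high cells Nr1i3 had 3, 6 and 5 UMIs in the control, day 4 and day 21 libraries, and day 21 over control was 0.93 (−1.35 to 3.70). Within the Cyp2e1-high cells day 4 over control was −0.48 (−1.12 to 0.14). The interval within the Cyp2f2-high cells at day 21 includes both 0 and the −1.20 of the whole class. The part of the sub-cluster makeup in the whole-class value was not tested.

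Hnf4a did not divide the Cyp2e1-high from the Cyp2f2-high cells in this way. Cyp2e1-high over Cyp2f2-high was 0.39 in the control (−0.24 to 1.06) and −0.16 at day 4 (−0.62 to 0.29). The other hepatocyte-like sub-clusters of the control had 88.4, 44.3 and 106 CPM of Hnf4a, on only 1, 1 and 5 UMIs. At day 4 the largest of these others, with 41 cells, had 1 Hnf4a UMI (16.7 CPM). At day 21 it had 2 UMIs in 7 cells (202 CPM). Hnf4a was thus not even over all the sub-clusters. Within the Cyp2f2-high cells Hnf4a had 32, 109 and 20 UMIs in the control, day 4 and day 21 libraries, or 189, 289 and 143 CPM. There day 4 over control was 0.59 (0.03 to 1.23), day 21 over control −0.39 (−1.28 to 0.45) and day 21 over day 4 −0.98 (−1.78 to −0.31). Within the Cyp2e1-high cells day 4 over control was 0.05 (−0.47 to 0.57).

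Cebpb and Ppara also differed within a sub-cluster. In Cyp2f2-high cells Cebpb had 41, 180 and 79 UMIs in the control, day 4 and day 21 libraries, or 243, 477 and 567 CPM. There the log2 ratio was 0.96 for day 4 over control (0.48 to 1.50) and 1.22 for day 21 over control (0.66 to 1.81). In the same cells the acute phase gene Saa1 was −0.88 for day 4 over control (−1.58 to −0.17) and 3.53 for day 21 over control. In Cyp2e1-high cells Cebpb was −0.22 for day 4 over control (−0.59 to 0.15). In Cyp2e1-high cells Ppara had 5 UMIs at day 4 and 18 in the control, a log2 ratio of −1.86 (−3.74 to −0.47), on 10 and 9 cells. In Cyp2f2-high cells it had 17 UMIs at day 4 and 4 in the control, a log2 ratio of 0.80 (−0.69 to 2.96).

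**Figure D4:**
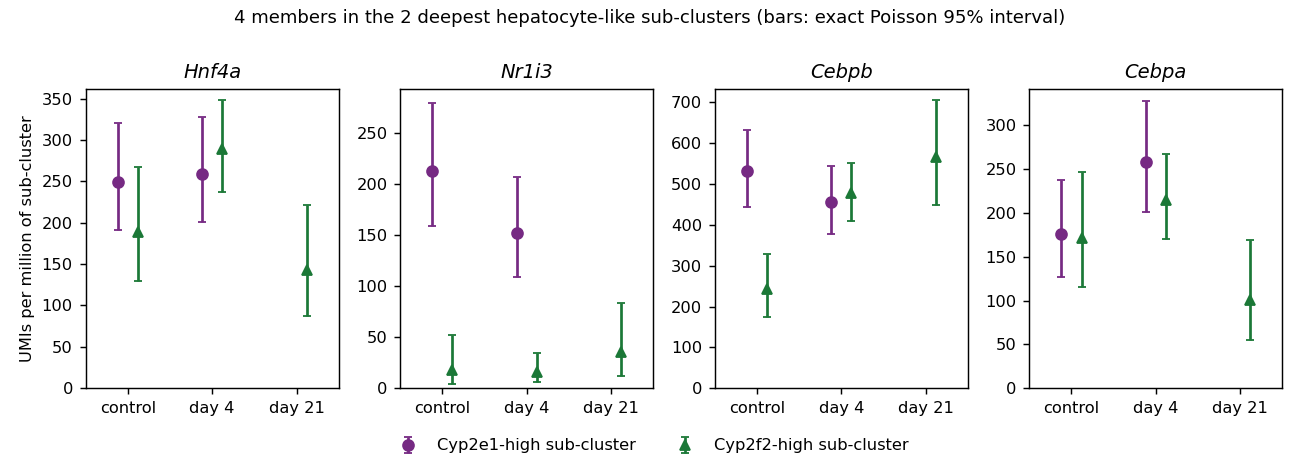
Levels of Hnf4a, Nr1i3, Cebpb and Cebpa in the Cyp2e1-high and Cyp2f2-high hepatocyte-like sub-clusters in CPM by library, with 95% counting intervals. The single day 21 Cyp2e1-high cell is not drawn. Nr1i3 stands at 213 and 152 CPM in the control and day 4 Cyp2e1-high cells and at 17.7, 15.9 and 35.9 CPM in the control, day 4 and day 21 Cyp2f2-high cells.

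Genes that depend on these factors were counted from lists of known targets. Of 50 listed HNF4A targets, 46 were measured in hepatocyte-like cells, of which 4 were higher by the same 2-fold mark and 1 was lower at day 4 than in the control, with a median log2 ratio of 0.02. At day 21 over control, 1 was higher and 6 were lower, with a median of −0.20. All measured genes, at 6.67% higher and 8.52% lower with a median of 0.05, are the background for the lists at day 21 over control. At day 4 over control the background was 4.09% higher and 4.96% lower, with a median of −0.00. Apoa4, an apolipoprotein gene, stood at 395 CPM at day 21 against 1564 CPM in the control (log2 ratio −1.97). Of its 773 control UMIs, 737 were in the 4 Cyp2f2-high cells. Cyp27a1, a bile acid synthesis enzyme, stood at 81.5 against 200 CPM (−1.25). Of FXR targets, 3 of 14 measured were lower and 1 was higher at day 21, and Nr0b2, which encodes the repressor SHP, stood at 138 CPM at day 21 against 76.9 CPM in the control.

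CAR and PPARα targets had medians below 0 at day 21. Of 18 measured CAR targets, 6 were lower and 1 higher at day 21 than in the control, with a median of −0.57. Cyp2b10, the textbook CAR target, stood at 12.5 CPM at day 21 against 80.9 CPM in the control (−2.39, −5.78 to −0.74). Cyp2a5 stood at 56.4 against 360 CPM (−2.60, −3.83 to −1.72). These day 21 values rest on 2 UMIs of Cyp2b10 and 9 of Cyp2a5. Of 25 measured PPARα targets, 7 were lower and 0 higher at day 21, with a median of −0.74. Cyp4a10, a fatty acid hydroxylase, stood at 31.4 against 204 CPM (−2.57, −4.36 to −1.43), on 5 UMIs at day 21. At day 4 over control, 4.96% of all measured genes were lower, with a median of −0.00. There 3 of 25 PPARα targets were lower, and their median was −0.45. Among them was Pdk4, a brake on glucose oxidation (−2.70, −4.84 to −1.25), on 4 UMIs at day 4. Some listed CAR targets are pericentral genes too, and of the pericentral list 10 of 16 were lower at day 21 than in the control, with a median of −1.57, beside the pool with 1 Cyp2e1-high cell. Glul, the glutamine synthetase of the innermost pericentral cells, stood at 37.6 CPM at day 21 against 1481 CPM in the control (−5.18).

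Many acute phase genes were higher at day 21. Of 25 measured acute phase genes, 12 were at least 2-fold higher and 0 lower at day 21 than in the control, with a median of 0.76, while 0 of 24 were past 2-fold at day 4. Saa1 stood at 2026 CPM at day 21 against 78.9 CPM in the control (4.67) and Saa2 at 928 against 16.2 CPM (5.76). Lcn2 stood at 897 against 87.0 CPM (3.35), and it is also a neutrophil precursor gene. Of the periportal list, 7 of 21 were higher and 1 lower at day 4 than in the control, beside 4.09% higher and 4.96% lower of all measured genes, with a median of 0.69. Cyp2f2 stood at 632 CPM at day 4 against 239 CPM in the control (1.40), and the lower gene was Apoa4, at 257 against 1564 CPM (−2.60). That control value of Apoa4 came mostly from the 4 Cyp2f2-high cells. Of 11 measured cytokine-response genes, 2 were higher and 1 lower at day 21, among them Socs3, a feedback inhibitor of cytokine signalling, at 69.0 CPM at day 21 against 24.3 CPM in the control (1.51). Of 23 other hepatocyte transcription factors measured at day 21 over control, 3 were lower and 0 higher, with a median of −0.05.

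Outside hepatocytes, Cebpb was lower at day 4 than in the control in several classes. In stellate-like cells it stood at 997, 455 and 431 CPM in the control, day 4 and day 21 libraries, and the log2 ratio to the control was −1.13 at day 4 (−1.21 to −1.06) and −1.21 at day 21 (−1.32 to −1.10). In that class 2.05% of measured genes were at least 2-fold lower at day 4 and 5.27% at day 21. Different clusters held most of the class: cluster 10 had 367, 435 and 16 cells and cluster 26 had 1, 1 and 243 cells. Within cluster 10 Cebpb was −1.25 at day 4 over control and −0.72 at day 21 over control, on 16 day 21 cells. The early response gene Fos was at 358, 155 and 697 CPM in the same class and Nfkbia, an inhibitor of NF-κB, at 1042, 553 and 328 CPM.

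In B-like cells Cebpb stood at 322, 67.1 and 83.7 CPM in the control, day 4 and day 21 libraries, a log2 ratio to the control of −2.25 at day 4 (−2.74 to −1.81) and −1.94 at day 21 (−2.37 to −1.54). There 2.67% of measured genes were at least 2-fold lower at day 4 and 3.58% at day 21, and 1 cluster held the class. NK/ILC1-like cells had 193, 44.9 and 97.8 CPM of Cebpb, with −2.07 at day 4 over control, where 4.29% of genes were lower. Endothelial-like cells had 67.2, 30.8 and 73.9 CPM, with −1.12 at day 4 over control (−1.35 to −0.90), where 1.47% of genes were lower. Most day 21 endothelial-like cells were in cluster 18, which held 2, 1 and 940 cells, so day 21 values of this class compare different clusters. Kupffer-like cells had 1489, 988 and 1115 CPM, with −0.59 at day 4 and −0.42 at day 21 over control. Cebpb was thus highest in the control library in stellate-like, B-like, NK/ILC1-like and Kupffer-like cells. In endothelial-like cells its log2 ratio of day 21 over control ran from −0.25 to 0.74 over 11 settings. The control and day 21 libraries are therefore not ranked in that class.

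Myeloid classes varied in other ways. Neutrophil-like cells had 4078, 2520 and 1598 CPM of Cebpb in the control, day 4 and day 21 libraries. With doublets kept the direction turned in all 3 comparisons, to 0.32 for day 4 over control, 0.95 for day 21 over control and 0.63 for day 21 over day 4. Day 21 over day 4 also turned, to 0.14 under median-of-ratios scaling and 0.31 under the stricter filter. The median of all genes in that class was −1.004 at day 21 over control, where 50.1% of genes were at least 2-fold lower, and within cluster 14 Cebpb was −0.64 at day 4 and −0.65 at day 21 over control. Conventional dendritic-like cells had 342, 286 and 646 CPM of Cebpb and 52.7, 107 and 128 CPM of Cebpa. There Cebpa was higher than in the control, by 2.001-fold at day 4 (1.32 to 3.19) and 2.39-fold at day 21 (1.60 to 3.78), where 4.36% and 13.3% of genes were at least 2-fold higher. Kupffer-like cells had 124, 159 and 144 CPM of Cebpa.

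Over the 3 libraries the FXR gene Nr1h4 had its highest level in stellate-like cells, at 100 CPM. It was at 46.4 CPM in hepatocyte-like cells and 56.0 CPM in the low-UMI barcodes with hepatocyte markers. Nr1h4 stood at 86.3, 120 and 85.8 CPM in the control, day 4 and day 21 stellate-like cells. Day 4 over control was 0.48 (0.29 to 0.68), day 21 over control −0.00 (−0.29 to 0.27) and day 21 over day 4 −0.49 (−0.76 to −0.22) on the log2 scale. Most day 21 stellate-like cells were in cluster 26, at 91.6 CPM of Nr1h4, so the day 21 values compare different clusters. Within cluster 10 Nr1h4 stood at 94.6, 131 and 53.6 CPM in the control, day 4 and day 21 libraries. That day 21 value rests on 4 UMIs. In hepatocyte-like cells Nr1h4 was at 54.6, 44.0 and 31.4 CPM.

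**Figure D5:**
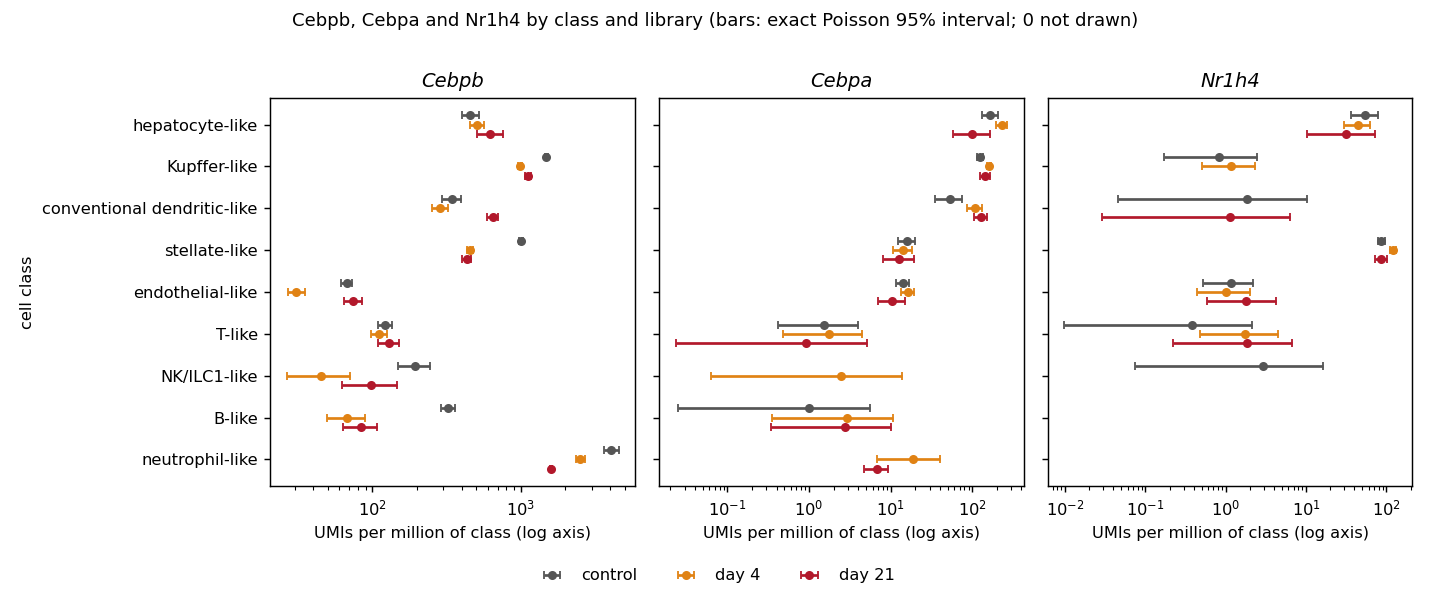
Levels of Cebpb, Cebpa and Nr1h4 in CPM by cell class and library, with 95% counting intervals, on log axes. Cebpb is highest in the control library in stellate-like, B-like and Kupffer-like cells, and Nr1h4 stands at 86.3, 120 and 85.8 CPM in stellate-like cells.

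Across 37 pools of 1 class in 1 library, which share libraries and differ in depth, the pattern of Hnf4a was most like that of Ugt2b34, Acaa1b and Ttc36, each with a Pearson correlation of 0.98 of log2(CPM + 10). Nr1i3 was most like Abcg8, Slco1a4 and Gfra1 (0.99 each), and Ppara like Gltpd2 (0.98), Abcg5 and Fst. Foxa3 was most like Prkaa2 (0.97), Cyp4f14 and Tmprss6. Foxa2 was most like Dsp (0.97), Sorbs2 and Cda, and Nr1h4 like Cdh2 (0.98), Bco1 and Plekha6. The closest genes to Cebpa and Cebpb were less close, at 0.83 for Gpx1 and 0.86 for Tnfaip2. Among the 8 genes themselves, Hnf4a was at 0.94 with Foxa3, 0.90 with Ppara, 0.89 with Nr1i3 and 0.10 with Cebpb.

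A hepatocyte-like cell held a median of 1, 2 and 3 of the 8 genes in the control, day 4 and day 21 libraries, and 14 of 53, 26 of 67 and 10 of 26 cells held 4 or more. In 10, 15 and 1 cells 0 of the 8 were found. These numbers go with the median depths of 2044, 1681 and 6366 UMIs.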

How the data were processed

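Liver non-parenchymal cells of 1 control, 1 day 4 and 1 day 21 library were counted by droplet sequencing. The deposited values are raw UMI counts per gene and barcode, written by Cell Ranger 3.1.0 (per the file headers), on mm10 per the submitters' processing notes, already restricted to barcodes with at least 500 UMIs. Gene positions came from GENCODE M21, in which 30934 of 31053 gene IDs were found. Barcodes under 200 genes or over 20% mitochondrial UMIs were dropped, and Scrublet marked and removed 40, 99 and 732 doublets in the control, day 4 and day 21 libraries. The filter removed 10.6%, 16.9% and 3.04% of UMIs.

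Counts were scaled to 10000 per cell. The 2000 most variable genes without the 8 genes, 30 components, 15 neighbours and Leiden resolution 1 gave clusters, and those with hepatocyte or cholangiocyte markers were reclustered. A name needed 3 detected markers, and sub-clusters under 1/3 of the median depth of their library with no marker among their 10 leading genes stayed unnamed. UMIs were summed per class and library. Levels have exact Poisson intervals and log2 ratios, with 0.5 counts added, have exact conditional binomial intervals. Genes with 20 UMIs over both libraries count as measured. Differences between libraries were taken in hepatocyte-like cells and in other classes of at least 50 cells per library.

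The genes and lists were chosen with earlier results of these data known. Named genes were the 8, the 3 genes most like each in pattern, and up to 4 genes per list with the largest log2 ratios whose interval excludes 0. Nr0b2, Fos and Nfkbia were named after their values were seen. The log2 ratio and its interval were tested on simulated Poisson counts for day 4 over control in hepatocyte-like cells. That simulation held no spread between cells, and filtering, clustering, naming and the free RNA expectation were not tested on simulated data. Clustering used Scanpy 1.11.5 with igraph 0.11.9 and scikit-learn 1.9.0. Statistics and plots used SciPy 1.17.1, pandas 2.3.3, matplotlib 3.10.9 and NumPy 2.4.6 in Python 3.11.15.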

Additional observations from a re-analysis of the deposited data

Results flagged for a closer look

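Hnf4a was also found in barcodes outside the named cell classes. Barcodes removed by the cell filter, which enter only the totals over all barcodes and the settings with the filter lifted, held 100 Hnf4a UMIs in the control library, 164 in the day 4 library and 21 in the day 21 library. These were 40.2%, 38.95% and 16.3% of all Hnf4a UMIs of the control, day 4 and day 21 libraries. Their level was above the limit that a count of 0 allows. With the mitochondrial limit lifted, many fell in barcodes classed as hepatocyte-like. Such barcodes at 20 to 50% mitochondrial UMIs held 70, 108 and 7 Hnf4a UMIs in the control, day 4 and day 21 libraries. Those over 50% held 10, 23 and 1.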

How the results depend on the processing

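No paired analysis was possible because there was 1 library per group. Of the main values under the alternatives, 63 moved by less than their counting interval, 8 moved more and 3 reversed; of the single values named among many, 626 stayed within it, 138 moved and 12 reversed. A stricter filter (500 genes, 10% mitochondrial UMIs) gave Hnf4a at −1.26 for day 4 over control and 0.99 for day 21 over day 4. It also gave Cebpb in hepatocyte-like cells at −0.17 for day 21 over control, Foxa2 at −0.46, Cebpb in Kupffer-like cells at −0.084 and Cebpb in neutrophil-like cells at 0.31, all 3 for day 21 over day 4. Cells chosen by their own markers gave Hnf4a at 0.92 for day 4 and 0.62 for day 21 over control, Nr1i3 at 0.10 for day 4 over control and Cebpb at −0.60 for day 21 over control. Thinning to 1000 UMIs gave Hnf4a at 0.93 for day 21 over control and 0.40 for day 21 over day 4, and Cebpa in endothelial-like cells at 0.11 for day 21 over day 4. A mean over cells gave Hnf4a at −0.076 for day 4 over control, 0.33 for day 21 over control and 0.40 for day 21 over day 4. In Cyp2f2-high cells alone the median of the genes was 0.59 for day 4 and 0.64 for day 21 over control, and Nr1i3 was 0.93 for day 21 over control. With doublets kept, Cebpb in neutrophil-like cells was 0.32 for day 4 over control, 0.95 for day 21 over control and 0.63 for day 21 over day 4, and median-of-ratios scaling gave the last as 0.14. The cause was not tested. Hnf4a's share in hepatocyte-like cells ran from 22.4% to 75.4% over 8 settings. The Cyp2e1-high cells alone gave no day 21 value, with 1 cell. The settings for low-UMI barcodes and for single sub-clusters were chosen after seeing the data. Depth limits Foxa2, Foxa3, Nr1h4 and Ppara most, with 5 to 8 UMIs each in day 21 hepatocyte-like cells.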
